A study of Mus musculus with 9 samples.

Results

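The genes described here are 34 listed molecular chaperones and their helpers, out of 54532 gene IDs in the count table. They were picked as a list of names that uses no measured value, although the list was drawn up with earlier results of these data known. The list has a cytosolic set of 16 genes, which takes in the mitochondrial chaperonin pair Hspd1 and Hspe1, and an endoplasmic reticulum (ER) set of 18 genes. All 34 had enough reads to be tested, as did 14264 genes in all. The RNA came from mouse osteoclasts, the multinucleated cells that resorb bone, in 3 groups of 3 libraries. KO_4OI was bone marrow labelled Acod1-deficient, grown into osteoclasts with 50 µM of 4-octyl-itaconate from day 1 (4-OI, an itaconate ester made to enter cells). KO_CTR carried the same genotype label and was left unstimulated. WT_CTR was labelled wild-type and was also unstimulated. All groups had a night in 5 ng/ml of M-CSF, then 20 ng/ml of M-CSF together with 10 ng/ml of the osteoclast-inducing cytokine RANKL, and were harvested on day 3. Acod1 encodes the enzyme that makes itaconate. No wild-type cells received 4-OI, and the labels give neither the deleted part of Acod1, the age or strain of the mice, nor whether the libraries of a group came from separate animals. The p-values therefore cover library-to-library spread, of which some may be technical.

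Chaperones bind unfolded proteins and help them reach their native shape. In the cytosol, heat shock factor 1 switches on HSP70, HSP90, HSP110 and small heat shock protein genes when unfolded protein builds up. In the ER, the sensors IRE1, ATF6 and PERK drive the unfolded protein response, in which the transcription factors XBP1 and ATF6 raise ER chaperones, oxidoreductases and the machinery of ER-associated degradation. Osteoclasts secrete large amounts of protease and acid, and so depend on ER folding.

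Libraries held 24830149 to 35143629 counted reads, and levels below are in CPM, read counts scaled to a common library size after TMM normalization. The osteoclast markers (10 of 10 tested) summed to 9050 to 11510 CPM in KO_4OI, 27720 to 34280 CPM in KO_CTR and 24600 to 25990 CPM in WT_CTR, and none was at 0. In bulk RNA, fewer cells of a type and less RNA per cell cannot be told apart. Macrophage markers summed to 2697 to 3014 CPM in KO_4OI, 3244 to 4428 CPM in KO_CTR and 2613 to 3097 CPM in WT_CTR, and dendritic cell markers to 99.8 to 101 CPM, 182 to 290 CPM and 87.8 to 145 CPM in the same order. Both lists, like the osteoclast and plasma cell lists, were lower in KO_4OI than in KO_CTR without overlap. The neutrophil, B cell, T and NK cell, stromal and erythroid lists overlapped between these groups. Neutrophil markers summed to 766.5 to 932.5 CPM in KO_4OI, 573.6 to 851.3 CPM in KO_CTR and 475 to 694 CPM in WT_CTR. B cell markers summed to 107.3 to 131.8 CPM, 91.66 to 130.5 CPM and 51.95 to 79.52 CPM in the same order. The plasma cell markers, of interest because such cells are rich in ER chaperones, summed to 144.6 to 178 CPM in KO_4OI, 251.2 to 374.9 CPM in KO_CTR and 238.7 to 274.5 CPM in WT_CTR. The part of these shifts in cell markers in the results below was not tested. Acod1 itself had 135, 168 and 131 reads in KO_4OI, 60, 86 and 47 in KO_CTR and 24, 27 and 55 in WT_CTR, so the reads do not follow the genotype labels, and genotype is used here only as labelled. Xist reads were found in KO_4OI replicate 3 (8764) and WT_CTR replicate 2 (10715) and in no other library. KO_CTR replicate 2 stood apart: it was the lowest of the 9 libraries for 15 of the 34 members (44.1%), against 26.3% of all tested genes. It was the highest of the 9 for 2 members, and for 25.5% of all tested genes. Within its group, KO_CTR replicate 2 was the lowest for 17 members (50%, against 40.1% of all tested genes). KO_4OI replicate 2 was the lowest of its own group for 18 (52.9%, against 40.3%). In WT_CTR, replicate 2 was the lowest of the group for 16 members (47.1%, against 28.4%) and replicate 3 for 15 (44.1%, against 42.2%). KO_CTR replicate 2 and WT_CTR replicate 3 were both the lowest of their groups for 14 members (41.2%, against 31.8% of all tested genes). Among these were Hsp90aa1, Hsp90b1, Hspa5, Dnajc3, Chordc1 and Hspd1.

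**Figure D1:**
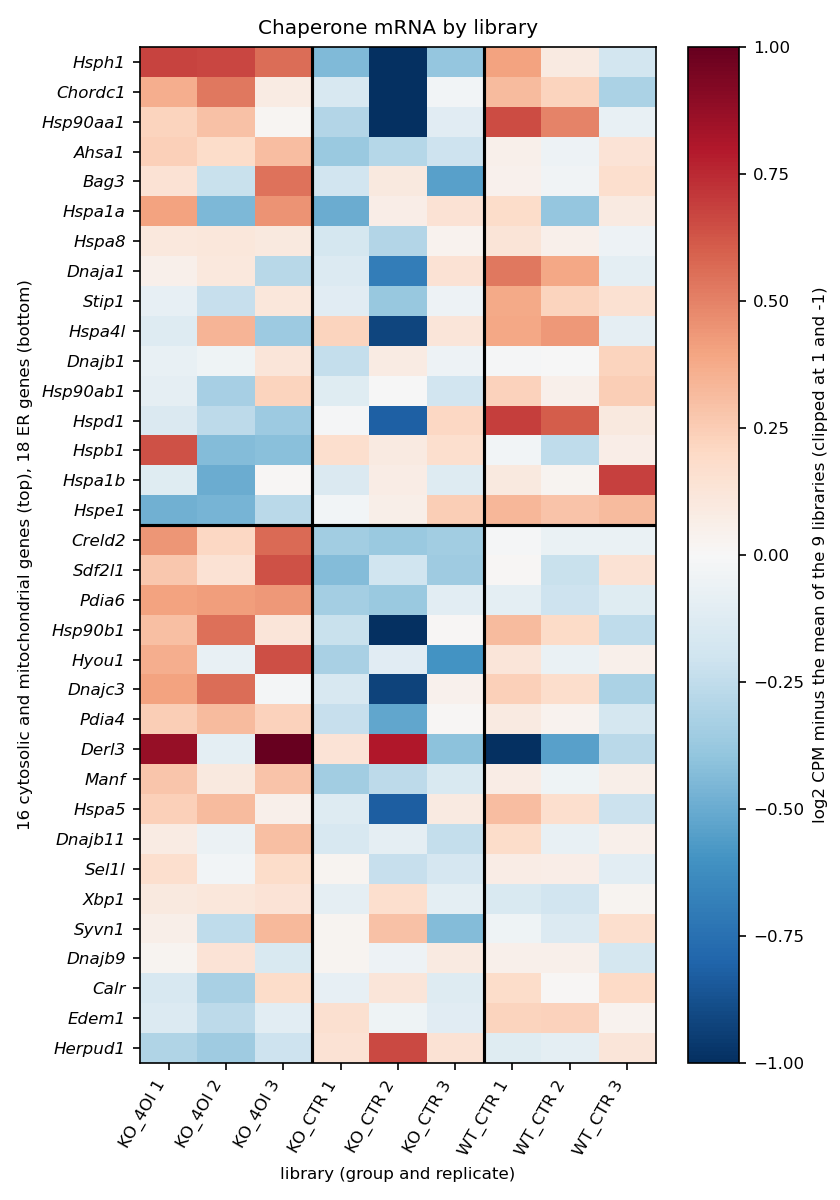
Heat map of the 34 chaperone genes, with genes in lines (cytosolic and mitochondrial on top, ER below) and the 9 libraries in columns (KO_4OI, then KO_CTR, then WT_CTR). Colour is log2 CPM minus the mean of the 9 libraries. Hsph1, Pdia6 and Creld2 are high in every KO_4OI library, while KO_CTR replicate 2 is dark blue for Hsph1, Chordc1, Hsp90aa1, Hsp90b1, Dnajc3 and Hspa5.

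The comparison of KO_4OI with KO_CTR asks what 4-OI did in osteoclasts of the same genotype label. In the ER set, 7 of 18 genes rose and 1 fell at an adjusted p under 0.05. The risers were the protein disulfide isomerases Pdia6 and Pdia4, the disulfide isomerase-like Creld2, the HSP70 partners Sdf2l1, Hyou1 and Manf, and the ER HSP90 Hsp90b1, at 1.39-fold to 1.71-fold. Herpud1, a membrane protein of ER-associated degradation, fell to 0.649 of its KO_CTR level. The set's share called was 44.4%, against 27.3% of all 14264 genes tested (13.0% higher and 14.2% lower). Its median log2 fold change was 0.46, against 0.02 over all tested genes, and 14 members lay above 0 and 4 below. All 3 KO_4OI libraries lay above all 3 KO_CTR libraries for 8 ER members and below them for 1, where 19.8% and 19.6% of all tested genes did so.

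Among the oxidoreductases, which make and reshuffle disulfide bonds, Pdia6 (chr12:17266545-17284770, mm10) had 485, 490 and 496 CPM in KO_4OI, 290, 285 and 341 CPM in KO_CTR and 344, 319 and 338 CPM in WT_CTR. Every KO_4OI library lay above every other library, with little spread among them (log2 fold change over KO_CTR 0.68, SE 0.12, adjusted p = 0.00103). Creld2 (chr15:88819646-88826683) had 72.9, 61.8 and 79.6 CPM in KO_4OI, 42.1, 41.4 and 42.1 CPM in KO_CTR and 53.2, 51.2 and 51.3 CPM in WT_CTR. The 3 groups did not overlap, KO_4OI being highest and KO_CTR lowest (log2 fold change of KO_4OI over KO_CTR 0.77, SE 0.14, adjusted p = 0.00117). Pdia4 had 158, 166 and 156 CPM in KO_4OI, 114, 93.2 and 134 CPM in KO_CTR and 142, 137 and 118 CPM in WT_CTR. KO_4OI was above both other groups, and the KO_CTR and WT_CTR libraries overlapped (log2 fold change over KO_CTR 0.49, SE 0.15, adjusted p = 0.0282).

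The ER HSP70 system centres on Hspa5 (BiP, chr2:34771970-34777547), which holds unfolded chains and keeps the stress sensors silent. It had 964, 1016 and 848 CPM in KO_4OI, 746, 462 and 868 CPM in KO_CTR and 1009, 916 and 702 CPM in WT_CTR. The 3 groups overlapped and the difference of KO_4OI from KO_CTR did not pass (log2 fold change 0.45, SE 0.20, adjusted p = 0.127; 0.19 without KO_CTR replicate 2). Its partners differed among themselves. Sdf2l1, which works in the ER with the J protein Dnajb11, had 144, 131 and 184 CPM in KO_4OI, 88.0, 104 and 93.0 CPM in KO_CTR and 120, 102 and 131 CPM in WT_CTR. All KO_4OI libraries stood above all KO_CTR libraries (log2 fold change 0.69, SE 0.16, adjusted p = 0.00604). Hyou1, the ER HSP110 that acts as a nucleotide exchange factor for BiP, had 186, 137 and 226 CPM in KO_4OI, 115, 134 and 95.7 CPM in KO_CTR and 157, 138 and 150 CPM in WT_CTR. The lowest KO_4OI library was just above the highest of KO_CTR (log2 fold change 0.67, SE 0.18, adjusted p = 0.0153). Manf, a secreted and ER-resident protein that binds BiP, had 170, 150 and 171 CPM in KO_4OI, 111, 117 and 126 CPM in KO_CTR and 148, 136 and 147 CPM in WT_CTR. These 3 groups did not overlap (log2 fold change of KO_4OI over KO_CTR 0.48, SE 0.13, adjusted p = 0.0137).

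Among the listed members, the J proteins that hand substrates to BiP did not pass. Dnajc10, which is not a member, is given with the wider lists below. Dnajc3 (p58IPK) was 1.54-fold higher by its means (log2 fold change 0.62, SE 0.24, adjusted p = 0.0686; called under 4 of the 20 alternatives, with a range of 0.36 to 0.83 over all of them), Dnajb11 had a log2 fold change of 0.28 (SE 0.14, adjusted p = 0.156) and Dnajb9 one of -0.02 (SE 0.15, adjusted p = 0.952). Hsp90b1 (GRP94, chr10:86690209-86705509), the ER HSP90 that folds integrins and Toll-like receptors, had 634, 757 and 562 CPM in KO_4OI, 442, 256 and 520 CPM in KO_CTR and 643, 589 and 433 CPM in WT_CTR. KO_4OI lay above KO_CTR and overlapped WT_CTR, with KO_CTR replicate 2 far below the rest (adjusted p = 0.042, log2 fold change over KO_CTR 0.68, SE 0.23). Hsp90b1 passed under only 9 of the 20 alternatives, missing also with upper-quartile factors (0.0551), at a mean of at least 5 CPM (0.0574), with only the 2 groups compared (0.0605) and with sex as a covariate (0.059). Calr, a calcium-binding lectin chaperone of glycoproteins, had a log2 fold change of -0.06 (SE 0.14, adjusted p = 0.796).

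Xbp1 encodes the transcription factor that IRE1 activates by splicing its mRNA, a step that gene counts do not show. It had 215, 218 and 221 CPM in KO_4OI, 189, 226 and 188 CPM in KO_CTR and 181, 176 and 205 CPM in WT_CTR. KO_4OI overlapped KO_CTR through KO_CTR replicate 2, the highest of the 9 (log2 fold change 0.12, SE 0.13, adjusted p = 0.543). In the degradation branch, Herpud1 (chr8:94386438-94395377) had 57.5, 55.5 and 61.5 CPM in KO_4OI, 78.5, 112 and 78.2 CPM in KO_CTR and 65.2, 66.4 and 77.2 CPM in WT_CTR. Every KO_4OI library was below every other library (log2 fold change over KO_CTR -0.62, SE 0.16, adjusted p = 0.0122). The other degradation genes among the members did not pass. Sel1l, the adaptor of the ubiquitin ligase Syvn1, had a log2 fold change of 0.23, Syvn1 0.07, the mannose-trimming Edem1 -0.17, and Derl3, a membrane component listed at 0.0772 to 0.530 CPM, 0.48, with adjusted p-values of 0.229, 0.828, 0.343 and 0.516.

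**Figure D2:**
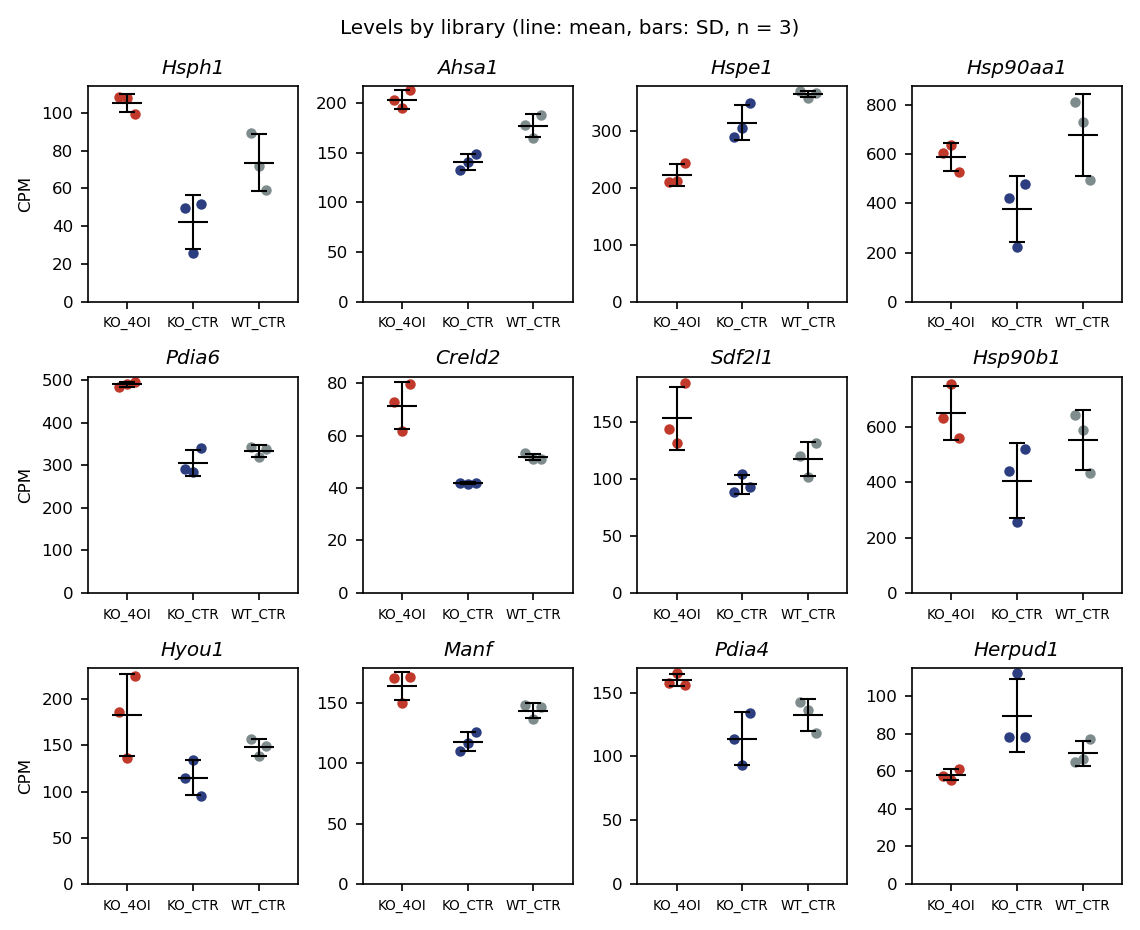
Levels in CPM of 12 chaperone genes by library (points), with the group mean (line) and SD (bars), n = 3 libraries a group, in the order KO_4OI, KO_CTR and WT_CTR. Pdia6 lies at 485 to 496 CPM in KO_4OI against 285 to 341 CPM in KO_CTR, and Herpud1 and Hspe1 are lower in KO_4OI than in either other group.

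Pdia6, Creld2 and Sdf2l1 passed under all 20 alternatives. Herpud1 passed under 19, Manf under 17, Hyou1 under 14, Pdia4 under 10 and Hsp90b1 under 9. Each of these other calls was lost when 1 library or another was left out, with a smaller group and folds of the same sign. Herpud1 was lost only without KO_4OI replicate 1. Without KO_4OI replicate 1 the log2 fold changes were 0.66 for Hyou1, 0.45 for Manf, 0.50 for Pdia4, 0.70 for Hsp90b1 and -0.61 for Herpud1, about those of all libraries, and the adjusted p was 0.0543 for Hyou1, 0.0743 for Manf, 0.0838 for Pdia4, 0.0886 for Hsp90b1 and 0.0567 for Herpud1. Without KO_CTR replicate 1 it was 0.0502 for Hyou1, 0.0544 for Manf, 0.0734 for Pdia4 and 0.0743 for Hsp90b1. Without KO_CTR replicate 2, where these genes were low, Pdia4 had 0.105 and Hsp90b1 0.0887, and the log2 fold change of Hsp90b1 was 0.41. Pdia4 also missed the threshold without KO_4OI replicate 2 (0.0792) or 3 (0.0510), Hyou1 without KO_CTR replicate 3 (0.0576) or KO_4OI replicate 3 (0.0694), and Hsp90b1 without KO_4OI replicate 2 (0.144) or WT_CTR replicate 2 (0.0548). With the 2 libraries that hold Xist reads left out, Hyou1 had 0.101, Manf 0.0821, Pdia4 0.0827 and Hsp90b1 0.0515. The ER median was 0.31 without KO_CTR replicate 2. Hspa5 passed without KO_CTR replicate 3 (adjusted p = 0.0416, log2 fold change 0.64).

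Promoter sequences were searched for motifs of the heat shock and unfolded protein responses. The members were listed as genes of these responses, so a high share of such motifs in either set is no independent finding. Windows of 300 bases, 250 before and 50 after the start, were available from RefSeq (GRCm38.p6) for 29 members, 16 of them in the ER set. The ER stress element, the composite motif that ATF6 binds together with NF-Y, was searched on both strands with its exact letters. It was found in 8 of the 16 ER windows (50.0%), those of Hspa5, Hsp90b1, Pdia6, Creld2, Dnajc3, Calr, Syvn1 and Derl3, in 0 of 13 cytosolic windows, and in 0.137% of the windows of 27025 genes. Its letters CCACG alone, which are part of it, stood in 15 of 16 ER windows (93.8%), 6 of 13 cytosolic windows (46.2%) and 35.5% of all. ER stress element II was found in Dnajb11 and Herpud1 and in 0.0444% of all genes. Of the 8 genes with an ER stress element, Pdia6, Creld2 and Hsp90b1 rose in KO_4OI and the other 5 did not pass, while Sdf2l1 and Pdia4 rose and had no match to either element in their windows. The risers Manf and Hyou1 had no window and were not searched, nor were the cytosolic members Hsp90aa1, Hsp90ab1 and Hspa8. The stretches below are on the strand of the gene, 5′ to 3′, with the matched element in capitals (in its reverse complement where the match is on the other strand). Hspa5 is shown as the archetype, Pdia6 and Creld2 as the risers with most support, Hsp90b1 because it holds the element in both orientations, and Herpud1 because it fell and carries element II. The Hspa5 stretch overlaps an annotated Hspa5 exon.
Hspa5, chr2:34772020-34772049, plus strand: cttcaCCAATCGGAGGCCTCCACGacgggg
Pdia6, chr12:17266469-17266538, plus strand: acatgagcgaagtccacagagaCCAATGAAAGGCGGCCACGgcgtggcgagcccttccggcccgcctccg
Creld2, chr15:88819506-88819565, plus strand: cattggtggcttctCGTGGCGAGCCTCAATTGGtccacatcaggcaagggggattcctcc
Hsp90b1, chr10:86705525-86705669, minus strand: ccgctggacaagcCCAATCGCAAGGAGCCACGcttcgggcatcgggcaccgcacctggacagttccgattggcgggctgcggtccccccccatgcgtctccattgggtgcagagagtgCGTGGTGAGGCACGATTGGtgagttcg
Herpud1, chr8:94386354-94386413, plus strand: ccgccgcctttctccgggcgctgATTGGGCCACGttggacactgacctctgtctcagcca
The Pdia6 and Creld2 elements lie in opposite orientation before the start, from base -98 to -80 and from base -126 to -108. A match describes letters in the window and was not tested for binding.

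Other genes of the ER pathway, taken from whole lists, moved in both directions between KO_4OI and KO_CTR. Of 31 further ER chaperones and oxidoreductases tested, 7 rose and 3 fell (32.3%, against 27.3% of all genes). The reductase Dnajc10 averaged 170.6 ± 46.0 CPM in KO_4OI and 69.1 ± 20.2 CPM in KO_CTR (SD, n = 3 each; log2 fold change 1.30, adjusted p = 0.00115), and the oxidase Ero1l averaged 67.4 ± 11.5 CPM and 37.3 ± 7.27 CPM in the same order (log2 fold change 0.86, adjusted p = 0.00469). The HSP70-like Hspa13 rose (log2 fold change 0.98, adjusted p = 0.0125) and Erp29, an ER folding assistant, fell (log2 fold change -0.69, adjusted p = 0.00438). Of 30 further degradation and translocation genes 6 rose and 1 fell (23.3%): Derl2 (log2 fold change 0.66), Selenok (0.68) and the translocon protein Ssr1 (0.59) were among the risers, and the ubiquitin ligase Rnf5 fell (-0.62).

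Of 11 stress sensors, related membrane factors and their proteases, 0 rose and 2 fell (18.2%, against 27.3% of all genes): Creb3l2, an ATF6-like factor (log2 fold change -0.97, adjusted p = 0.00197), and Eif2ak3, which encodes PERK (log2 fold change -0.44, adjusted p = 0.0489). Of 9 transcripts of the PERK branch, 2 rose and 2 fell (44.4%, against 27.3% of all genes). Atf3, a stress-induced transcription factor, averaged 167.9 ± 10.5 CPM in KO_4OI and 37.3 ± 15.8 CPM in KO_CTR (SD, n = 3 each), and Trib3 averaged 3.76 ± 0.485 CPM and 1.34 ± 0.0833 CPM in the same groups. The log2 fold changes were 2.17 and 1.49, with adjusted p-values of 7.05e-05 and 0.000349. Ppp1r15a (GADD34), which ends the PERK signal, fell (log2 fold change -1.32, adjusted p = 0.000274), as did Nupr1 (log2 fold change -1.30, adjusted p = 0.000194).

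**Figure D3:**
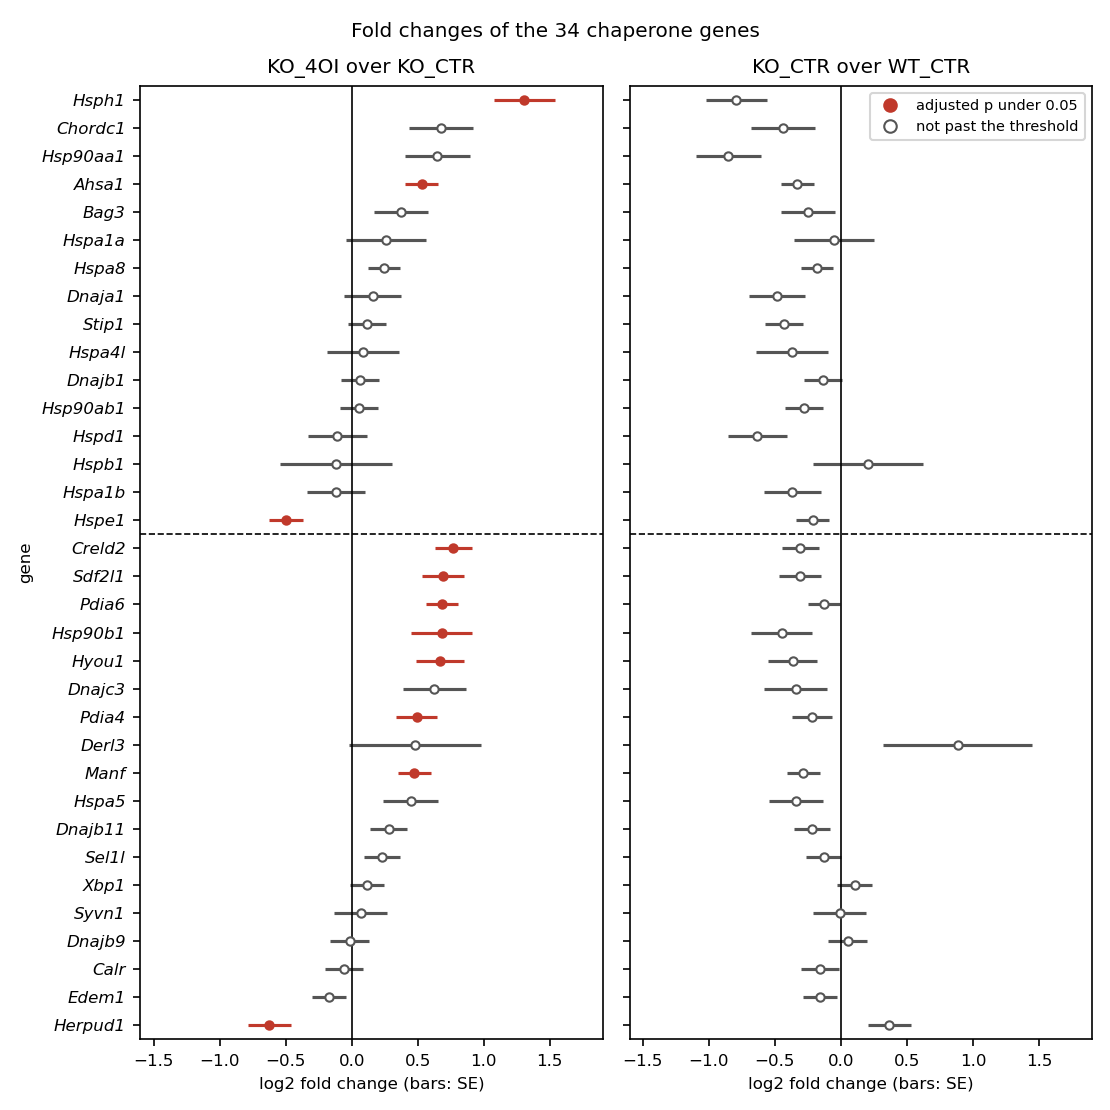
Log2 fold changes with SE of the 34 chaperone genes, for KO_4OI over KO_CTR (left) and KO_CTR over WT_CTR (right), cytosolic genes above the dashed line and ER genes below it. Filled red points passed an adjusted p of 0.05 (11 on the left, 0 on the right); both panels use the same KO_CTR libraries, so a low KO_CTR value moves a gene right in one panel and left in the other.

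In the cytosolic set, 2 of 16 genes rose and 1 fell between KO_4OI and KO_CTR (18.8%, against 27.3% of all genes tested). The median log2 fold change was 0.14 (0.09 without KO_CTR replicate 2), and 12 members lay above 0 and 4 below. All KO_4OI libraries lay above all KO_CTR libraries for 5 members and below them for 1, where 19.8% and 19.6% of all tested genes did so. The risers were Hsph1, the cytosolic HSP110, at 2.48-fold and Ahsa1, the activator of the HSP90 ATPase, at 1.45-fold. Hspe1, the HSP10 lid of the mitochondrial chaperonin, fell to 0.708 of its KO_CTR level.

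Hsph1 (chr5:149614287-149636376) had 108, 108 and 99.4 CPM in KO_4OI, 49.6, 25.9 and 51.6 CPM in KO_CTR and 89.4, 71.8 and 59.3 CPM in WT_CTR. The groups did not overlap, with KO_4OI highest and KO_CTR lowest (log2 fold change of KO_4OI over KO_CTR 1.31, SE 0.23, adjusted p = 0.001), and over all 20 alternatives the log2 fold change ran from 1.02 to 1.47. Ahsa1 (chr12:87266479-87273998) had 203, 194 and 213 CPM in KO_4OI, 133, 141 and 149 CPM in KO_CTR and 178, 165 and 188 CPM in WT_CTR. Again no group overlapped another (log2 fold change 0.53, SE 0.12, adjusted p = 0.00627). This call held under all 20 alternatives.

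The chaperones that Ahsa1 and Hsph1 serve did not pass. Hsp90aa1, the stress-inducible cytosolic HSP90, had 604, 635 and 526 CPM in KO_4OI, 422, 224 and 480 CPM in KO_CTR and 813, 730 and 493 CPM in WT_CTR. KO_4OI lay above KO_CTR without overlap and within the WT_CTR range (log2 fold change over KO_CTR 0.65, SE 0.25, adjusted p = 0.0673, and 0.0307 without KO_CTR replicate 3; without KO_CTR replicate 2 the log2 fold change was 0.35). Hsp90ab1, the constitutive HSP90, had 1801, 1524 and 2243 CPM in KO_4OI, 1765, 1914 and 1684 CPM in KO_CTR and 2255, 1985 and 2273 CPM in WT_CTR. KO_4OI overlapped both other groups (log2 fold change over KO_CTR 0.05, SE 0.14, adjusted p = 0.815), and its sign turned under upper-quartile scaling and without KO_4OI replicate 3. Hspa8, the constitutive HSP70, had 2710, 2732 and 2705 CPM in KO_4OI, 2232, 2055 and 2583 CPM in KO_CTR and 2754, 2615 and 2432 CPM in WT_CTR. KO_4OI was above KO_CTR in all libraries by a small step (log2 fold change 0.25, SE 0.12, adjusted p = 0.147).

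The stress-inducible HSP70 pair was listed at low values. Hspa1a had 2.16, 1.20 and 2.23 CPM in KO_4OI, 1.16, 1.72 and 1.81 CPM in KO_CTR and 1.85, 1.25 and 1.74 CPM in WT_CTR. Hspa1b had 5.25, 4.03 and 5.75 CPM in KO_4OI, 5.16, 5.99 and 5.21 CPM in KO_CTR and 6.10, 5.80 and 9.15 CPM in WT_CTR. KO_4OI and KO_CTR overlapped for both (log2 fold changes 0.26, SE 0.31, and -0.12, SE 0.22; adjusted p-values 0.569 and 0.725). Their coding sequences matched at 1890 positions (98.0%) in the annotation, so reads may be split or lost between them and each value is uncertain. Among cochaperones, the HSP90 partner Chordc1 had a log2 fold change of 0.67 (SE 0.24, adjusted p = 0.0544; called under 5 of the 20 alternatives, with a range of 0.40 to 0.86 over all of them), the HSP70 exchange factor Bag3 0.38 (adjusted p = 0.194), the HSP70 to HSP90 bridge Stip1 0.11 (adjusted p = 0.603) and the HSP110 relative Hspa4l 0.09 (adjusted p = 0.847). The J proteins Dnaja1 and Dnajb1 had log2 fold changes of 0.16 and 0.06, and the small heat shock protein Hspb1, listed at 0.261 to 0.550 CPM, one of -0.12.

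The mitochondrial chaperonin pair is transcribed in opposite directions from overlapping starts. Hspe1 (chr1:55088132-55091307) had 211, 212 and 244 CPM in KO_4OI, 289, 305 and 349 CPM in KO_CTR and 369, 358 and 366 CPM in WT_CTR. Each group lay wholly below the next, KO_4OI being lowest (log2 fold change over KO_CTR -0.50, SE 0.13, adjusted p = 0.0104, and 0.0662 without KO_4OI replicate 1). Hspd1 (chr1:55077835-55088243), the HSP60 barrel, had 444, 410 and 383 CPM in KO_4OI, 488, 279 and 567 CPM in KO_CTR and 792, 749 and 527 CPM in WT_CTR. KO_4OI overlapped KO_CTR, whose replicate 2 was the lowest of all (log2 fold change -0.11, SE 0.22, adjusted p = 0.76). With KO_CTR replicate 2 and WT_CTR replicate 3 left out, a choice made after seeing the data, it was -0.38 (adjusted p = 0.026). Hspd1 was the lowest of its group in both of those libraries, so the call so gained is no independent support. The 2 genes share 112 exon bases on opposite strands, and so do Dnaja1 with Smu1 (608 bases), Hsp90b1 with 1810014B01Rik (415) and Manf with Dcaf1 (146). Whether the counting used strand is not stated, so such reads may not be told apart.

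In the promoter windows, the heat shock element, searched as GAANNTTC or TTCNNGAA on both strands, stood in 9 of 13 cytosolic windows (69.2%), in 0 of 16 ER windows and in 17.0% of all genes. A run of 3 heat shock units (which contains neighbouring elements) were found in Hsph1, Chordc1, Hspd1 and Hspe1, and in 0.662% of all genes. Ahsa1, Stip1, Hspa4l and Dnajb1 had no match. The antioxidant response core TGACNNNGC, part of the site that NRF2 binds, stood in 2 of 13 cytosolic and 3 of 16 ER windows and in 13.99% of all. Hsph1 is shown because it had the largest fold rise of the 34 members over KO_CTR, Hspe1 because the same bases stand in the Hspd1 window, within an annotated Hspd1 exon, and the Hspa1a and Hspa1b stretches because the pair is nearly identical. Capitals mark the heat shock units. The Hsph1 stretch shows a single element, from base -33 to -26, and overlaps an annotated Hsph1 exon. The Hsph1 run of 3 units lies after that start, from base 37 to 49, and is not printed.
Hsph1, chr5:149636352-149636381, minus strand: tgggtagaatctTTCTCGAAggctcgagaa
Hspe1, chr1:55088053-55088082, plus strand: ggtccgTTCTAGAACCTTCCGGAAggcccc
Hspa1a, chr17:34972227-34972276, minus strand: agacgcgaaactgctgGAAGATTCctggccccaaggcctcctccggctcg
Hspa1b, chr17:34959309-34959358, minus strand: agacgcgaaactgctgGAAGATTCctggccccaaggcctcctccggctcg
The 300-base windows of Hspa1a and Hspa1b matched at 296 positions. Both genes carry an element and had at most 9.15 CPM. Of the genes with a run of 3 units, Hsph1 rose in KO_4OI over KO_CTR, Hspe1 fell, and Chordc1 and Hspd1 did not pass. Any part of these motifs in the changes was not tested.

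**Figure D4:**
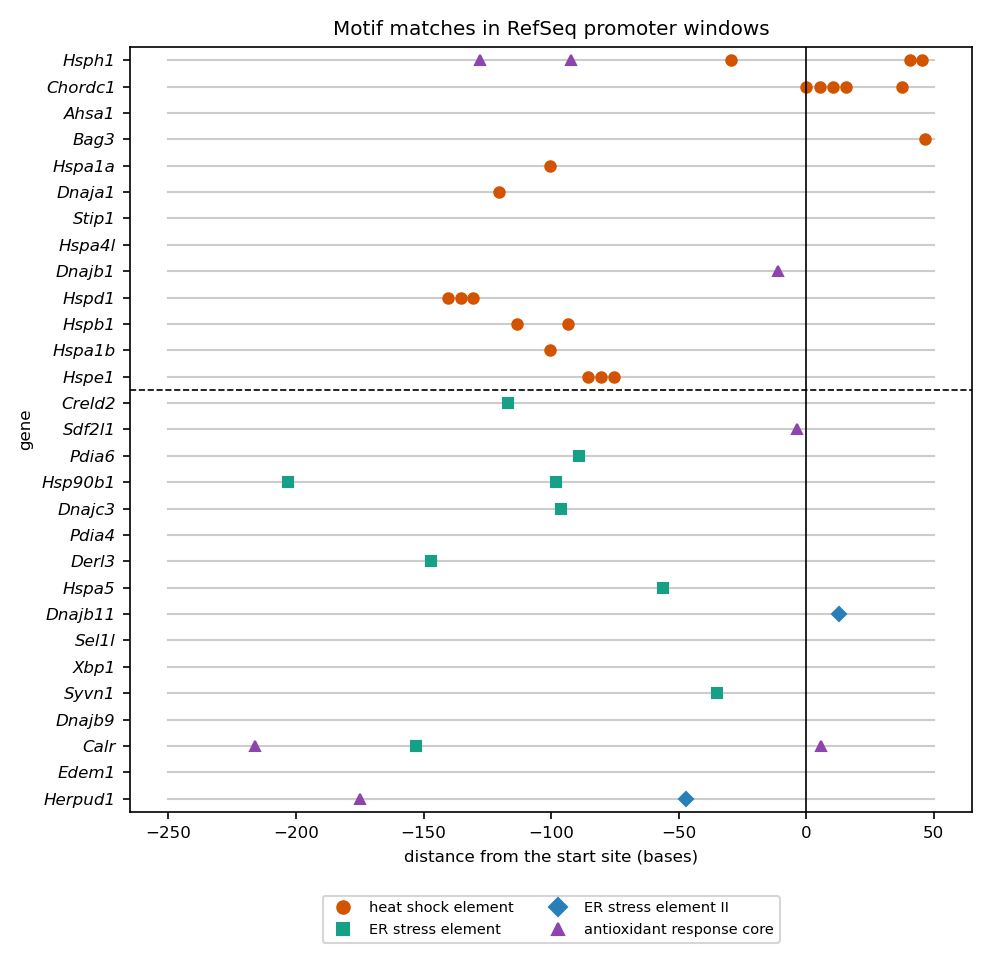
Matches of 4 motifs by distance in bases from the start site, in the RefSeq windows of 29 chaperone genes, cytosolic above the dashed line and ER below it; where a gene has several windows, the one with most matches is drawn. Heat shock elements (circles) lie only in the cytosolic windows and ER stress elements (squares) only in the ER windows.

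Wider cytosolic lists also moved in single genes. Of 13 further cytosolic J proteins 3 rose and 0 fell, led by Dnajb4, which averaged 51.8 ± 9.27 CPM in KO_4OI and 11.1 ± 3.42 CPM in KO_CTR (SD, n = 3 each; log2 fold change 2.22, adjusted p = 1.6e-05). Of 10 further HSP70-related genes 1 rose, the exchange factor Bag2, at 11.98 ± 2.43 CPM in KO_4OI and 3.90 ± 0.300 CPM in KO_CTR (log2 fold change 1.62, adjusted p = 6.39e-05). Of 15 HSP90 cochaperones 2 rose, Ptges3 (p23, log2 fold change 0.73) and Fkbp5 (0.68). Among 4 heat shock factors and regulators tested, Hsf2 rose (log2 fold change 0.69, adjusted p = 0.0298), while Hsf1 had 37.1 ± 7.96 CPM in KO_4OI and 37.6 ± 5.72 CPM in KO_CTR (log2 fold change -0.02, adjusted p = 0.95). Of 8 subunits of the cytosolic chaperonin TRiC and 6 of prefoldin 0 passed, with medians of 0.22 and 0.01, and of 4 small heat shock proteins only Hspb7 passed, and fell. Of 10 mitochondrial chaperones and proteases 0 rose and 4 fell: the proteases Htra2 (log2 fold change -0.82) and Lonp1 (-0.50), the J protein Dnaja3 (-0.64) and the mitochondrial HSP90 Trap1 (-0.49). Over these and the ER lists, 22 of 151 genes rose (14.6%, against 13.0% of all genes) and 13 fell (8.61%, against 14.2%).

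The comparison of KO_CTR with WT_CTR asks how the genotype label alone was reflected. By edgeR 0 of 34 members passed, where 74 genes passed in all (0.519% of those tested, 0.470% higher and 0.0491% lower). At an unadjusted p under 0.05 there were 6 of 16 cytosolic and 3 of 18 ER members, against 17.8% of all genes, and by DESeq2 2 cytosolic and 0 ER members passed, against 4.41% of all genes. The cytosolic set had a median log2 fold change of -0.35, with 15 of 16 members below 0, and the ER set one of -0.19, with 14 of 18 below 0, against -0.03 over all tested genes. All KO_CTR libraries lay below all WT_CTR libraries for 6 cytosolic and 4 ER members (9.56% of all tested genes), and above them for 1 member of each set (10.2%). Hsp90aa1 had a log2 fold change of -0.85 (SE 0.25, adjusted p = 0.118), Hsph1 -0.79 (SE 0.23, adjusted p = 0.12), Hspd1 -0.63 (SE 0.22, adjusted p = 0.178) and Stip1 -0.43 (SE 0.14, adjusted p = 0.157). DESeq2 called Hsp90aa1 (adjusted p = 0.0461) and Hsph1 (adjusted p = 0.0481), and with KO_CTR replicate 2 and WT_CTR replicate 3 left out edgeR did too (adjusted p = 0.019 and 0.0482, log2 fold changes -0.69 and -0.59). Those 2 libraries were left out because members such as these were lowest in them, so the calls so gained are no independent support. Leaving out KO_CTR replicate 2 gave a cytosolic median of -0.25 and an ER median of -0.06, and leaving out WT_CTR replicate 3 gave -0.21 and -0.17. Of the 151 genes of the wider lists 0 passed.

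This comparison and that of KO_4OI with KO_CTR use the same KO_CTR libraries, so a KO_CTR value that is low by chance gives opposite signs in them; the values are set side by side as a description. Hsph1 had a log2 fold change of 1.31 for KO_4OI over KO_CTR and -0.79 for KO_CTR over WT_CTR, Creld2 had 0.77 and -0.31, Hsp90b1 had 0.68 and -0.45, Pdia6 had 0.68 and -0.13, Herpud1 had -0.62 and 0.36, and Hspe1 had -0.50 and -0.21.

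KO_4OI and WT_CTR differ in both genotype label and 4-OI, which cannot be told apart here, and the comparison shares its libraries with those above. Of 16 cytosolic members 0 rose and 2 fell, and of 18 ER members 2 rose and 0 fell, where 24.3% of all genes passed (12.1% higher and 12.2% lower). Pdia6 (log2 fold change 0.56, SE 0.12, adjusted p = 0.0043) and Creld2 (0.46, SE 0.14, adjusted p = 0.0271) rose. Hspe1 (-0.71, SE 0.13, adjusted p = 0.0011) and Hspd1 (-0.74, SE 0.23, adjusted p = 0.0278) fell, both with every KO_4OI library below every WT_CTR library. The Creld2 call was lost without WT_CTR replicate 1 (adjusted p = 0.0798) or 2 (0.104) and without KO_4OI replicate 1 (0.106) or 3 (0.107). That of Hspd1 was lost without WT_CTR replicate 1 (0.105) or 2 (0.0913) and without KO_4OI replicate 1 (0.0599), 2 (0.0794) or 3 (0.0756). Pdia6 missed the threshold with the 2 libraries that hold Xist reads left out (0.0699). Hsph1, with KO_4OI above WT_CTR in every library, had a log2 fold change of 0.52 (SE 0.23, adjusted p = 0.128), and passed without KO_CTR replicate 2 (adjusted p = 0.00715), which enters the estimate of the spread. In the wider lists 11 of 151 genes rose and 10 fell, the fallers including the mitochondrial genes Htra2 (-0.79), Dnaja3 (-0.87), Trap1 (-0.51) and Lonp1 (-0.64).

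By level per length, in CPM per kilobase of exon, the most abundant members were Hsp90ab1 (619 in KO_4OI, 596 in KO_CTR and 724 in WT_CTR), Hspa8 (631, 532 and 605 in the same order) and Calr (493, 514 and 574). These kept the first 3 places in every group. Hsp90ab1 came before Hspa8 in KO_CTR and WT_CTR. In KO_4OI Hspa8 came before Hsp90ab1, by less than the spread of Hsp90ab1 in that group. Hspa5 came at 223, 164 and 207 and the ER HSP90 Hsp90b1 at 161.5, 101 and 138, in the same order. Derl3, Hspb1, Hspa1a and Hspa1b were lowest in every group. Of each library's reads, 0.519% to 0.809% fell on the cytosolic members and 0.412% to 0.562% on the ER members, with KO_CTR replicate 2 lowest and WT_CTR replicate 1 highest for both.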

How the data were processed

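Counts per Ensembl gene were deposited as whole numbers, 1 column a library; per the submitters' processing notes the authors used fastp, STAR and HTSeq 0.6.1 with mm10, and the sources used here give neither annotation release nor strand setting. After filterByExpr of edgeR (minimum count 10), the deposited counts were scaled by TMM and fitted over all 9 libraries with group as the only factor (edgeR 4.0.16 glmQLFit and glmQLFTest, R 4.3.3). P-values are two-sided, adjusted by Benjamini-Hochberg over 14264 genes, threshold 0.05; an SE is the absolute log2 fold change over the square root of F. The common biological coefficient of variation was 0.179. Libraries of a group differed by 8.26 to 94.1 chi-square units per gene, more than counting noise, which does not tell separate animals from separately prepared technical repeats. The fit was run on counts simulated from its own means and dispersions, which cannot show whether the model suits these libraries. Members and wider lists were chosen with earlier results of these data known. Every member is named or counted; values in every library are given for members past the threshold and for Xbp1, Hspa5, Hsp90b1, Hspa1a, Hspa1b, Hsp90aa1, Hsp90ab1 and Hspa8, and of each wider list the genes named are among the 4 with the smallest p. Gene coordinates come from GENCODE vM21 on GRCm38, the same assembly as mm10. DESeq2 1.42.0 and limma 3.58.1 were alternatives.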

Additional observations from a re-analysis of the deposited data

How the results depend on the processing

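There were 20 alternatives, 1 of them (KO_CTR replicate 2 and WT_CTR replicate 3 left out) chosen after seeing the data. For KO_4OI over KO_CTR, the cytosolic count of 3 was 5 without a low-count filter, 5 by DESeq2 and 2 to 5 with 1 library left out; the ER count of 8 was 5 with sex as a covariate, 4 without the libraries that hold Xist reads, and 3 to 9 with 1 library left out. For KO_CTR over WT_CTR, the 74 genes were 144 with upper-quartile factors, 879 without a filter, 29 at a mean of at least 5 CPM, 629 by DESeq2, 4 with sex as a covariate, 5 without the Xist libraries, 399 with the pair left out, and 0 to 247 with 1 library left out; the cytosolic count of 0 was 3 without a filter, 2 by DESeq2 and 2 with the pair left out. For KO_4OI over WT_CTR, the cytosolic count of 2 was 1 without the Xist libraries, 4 with the pair left out and 1 to 3 with 1 library left out; the ER count of 2 was 1 without a filter, 0 without the Xist libraries, 5 with the pair left out and 1 to 3 with 1 library left out. The replicate number as a block gave 6 genes for KO_CTR over WT_CTR, and 1 cytosolic and 1 ER member for KO_4OI over WT_CTR. The block also lost Pdia4 (adjusted p = 0.0641) and Hsp90b1 (0.0841) for KO_4OI over KO_CTR. Deviations from the group means correlated at -0.408 to 0.317 between same-numbered libraries of different groups. Between differently numbered ones they correlated at -0.415 to 0.544, the highest for KO_CTR replicate 2 with WT_CTR replicate 3. With 3 libraries a group, these values cannot decide whether the numbers pair the libraries. For KO_4OI over KO_CTR, Hsp90ab1 had -0.0043 with upper-quartile factors and -0.1037 without the Xist libraries, and with 1 library left out ran from -0.1037 to 0.1805, as Hspa1b did from -0.2297 to 0.0167 and Hspd1 from -0.3835 to 0.1061. For KO_CTR over WT_CTR, Hspa1a had 0.0264 with upper-quartile factors and 0.017 with the pair left out, and ran from -0.2071 to 0.1279 with 1 library left out; Pdia6 had 0.0108 with the pair left out. For KO_4OI over WT_CTR, Hspa1a had -0.094 without the Xist libraries. The causes were not tested. With 3 libraries a group, the spread of KO_CTR limits which members could pass, and a miss does not show that levels did not differ.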
